A study of Mus musculus with 6 samples.

Results

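The chemokines, cytokines and members of the tumour necrosis factor (TNF) superfamily were followed in cultured mouse lung endothelial cells given tumour-derived extracellular vesicles (TEV), with or without reserpine beforehand. The members are 49 genes. They comprise 38 symbols of the filtered expression table that begin with Ccl, Cxcl, Tnfsf or Tnfrsf followed by a digit, and 11 further genes listed by name. The named genes are Csf1, Csf2, Csf3, Lif, Il6, Il11, Il1a, Il1b, Il15, Il34 and Tnf. Of the 49 genes, 47 were in the filtered table, and Il1b and Tnf were in the raw table only. The 49 genes passed the count filter used here and were tested among 15035 genes, of 30055 symbols in the raw table. A further 33 symbols of the same name pattern were in the raw table but not in the filtered one, 6 of them with no count in any library. These 33 are not members, although 6 of them passed the count filter and were tested. Of the symbols of the name pattern, the one inside the filtered table with the lowest summed count was Ccl11, with 0.992 and 0 estimated counts for TEV plus reserpine, 1.99 and 1.99 for TEV, and 48.5 and 54.6 for vehicle. The one outside it with the highest summed count was Tnfsf13, with 15.5 and 31.6, 24.6 and 46.8, and 52.2 and 19.3 estimated counts in the same order of groups.

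Cells of the 6 libraries came from lungs of C57BL6 mice 3 weeks old, labelled female, that lack Ch25h, the gene of cholesterol 25-hydroxylase. Thus the vehicle cells carried the deletion too, and no cells with an intact gene were analysed here. The TEV plus reserpine group received 10 µM reserpine for 8 h and then 20 µg per ml of vesicles from MC38 mouse colorectal tumour cells for 12 h. By the sample labels, the TEV group received the same dose of vesicles for 12 h, and the vehicle group received neither. The series text could also mean reserpine for all cells, and the labels were followed here. Each group held 2 libraries. Reserpine blocks the vesicular monoamine transporters and has been used against high blood pressure. The cells were grown with endothelial growth factor, heparin and serum. No library of cells given reserpine without vesicles was analysed, so an effect of reserpine by itself and an effect on the response to vesicles cannot be told apart. The labels do not say whether the libraries of a group came from separate cultures or animals, or how many mice were pooled, so p-values measure only the spread between these libraries.

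Chemokines are small secreted proteins that draw leukocytes along gradients through receptors with a G-protein partner. The CXC ligands of the receptor CXCR2 attract neutrophils, and the CC ligands of CCR2 attract monocytes. Colony stimulating factors and interleukins govern the growth and activation of blood cells, and interleukin-6 type cytokines signal through the shared receptor chain gp130. TNF superfamily ligands are mostly membrane proteins on 1 cell that bind trimeric receptors on another; some of these receptors carry a death domain, some recruit TRAF adaptors, and some are decoys without a signalling tail. Endothelial cells are both a source and a target of many of these factors, and NF-kB transcription factors drive many of these genes.

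Values are counts scaled to library size and TMM factors (CPM), given per library as replicate 1 and replicate 2, unless another scale is named. Libraries held between 22270657 and 81225627 estimated counts, so that 3 counts, taken here as the floor of detection, equalled 0.0369 to 0.135 CPM without TMM factors. The summed marker levels that follow are also CPM without TMM factors. None of the 13 endothelial marker genes was at 0 in any library, and their summed level was 10886 and 10716 CPM for TEV plus reserpine, 12020 and 11894 CPM for TEV, and 5311 and 5307 CPM for vehicle. At an adjusted p under 0.05, 10 of these 13 were higher and 3 lower with TEV against vehicle. Over all genes these shares were 25.1% and 24.6%. For TEV plus reserpine against TEV, 5 were higher and 4 lower, against 15.7% and 16% of all genes. The summed level of 12 fibroblast markers was 509 and 457 CPM for TEV plus reserpine, 323 and 385 CPM for TEV, and 3505 and 3067 CPM for vehicle; 3, 2 and 0 of the 12 were at 0 in each library of these groups. Pericyte and smooth muscle markers, 11 genes, summed to 948 and 874 CPM, 737 and 863 CPM, and 2124 and 2111 CPM in the same order. Macrophage and leukocyte markers were low in every library, at 38.2 and 36.7 CPM, 29.2 and 29.8 CPM, and 66.7 and 76.7 CPM. Epithelial and colon tumour markers, 10 genes, summed to 67.1 and 60.5 CPM, 66.2 and 70.8 CPM, and 24.7 and 24.2 CPM in that order. Of the 8 tested, 4 were higher and 2 lower with TEV against vehicle. The part of this difference in the results below was not tested. The vehicle libraries thus carried several times more of the fibroblast marker RNA, and more of the pericyte and smooth muscle marker RNA, than the others. The part of this mesenchymal difference in any result below was not tested. Fewer cells of a type and less RNA per cell cannot be told apart in these bulk libraries.

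With TEV against vehicle, 30 of the 49 members were called at an adjusted p under 0.05, where 49.7% of all genes tested were called. Of these, 11 were higher and 19 lower, against 25.1% and 24.6% of all genes. The median log2 change over all genes was 0.01 with TMM factors and -0.11 with library size alone, and higher genes made up 50.5% and 39.8% of all calls. The median log2 change of the members was -0.65. At a change of at least 2-fold, 8 members were higher and 17 lower, against 8.95% and 14% of all genes. The 17 include all 7 members that were over 1 CPM in both vehicle libraries but in both libraries of no other group. Apart from Il34, the 7 are members only through the filtered table. By the same rule 1 member, Cxcl3, was over 1 CPM in TEV alone, and it was not called. The part of this choice of members in the lower counts and in the median was not tested. The libraries of the groups did not overlap for 34 members, against 78.9% of all genes.

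For TEV plus reserpine against TEV, 19 members were called, where 31.6% of all genes were. Of these, 14 were higher and 5 lower, against 15.7% and 16% of all genes; with library size alone 59.4% of all calls were higher, against 49.5% with TMM. The median log2 change of the members was 0.59 beside 0.00 for all genes, or 0.53 when members with no more than 3 counts in a group were set at their bound or left out. Groups did not overlap for 39 members, against 70.7% of all genes. For the pair of TEV plus reserpine and vehicle, 20 members were called, where 39.1% of all genes were, 8 of them higher and 12 lower, against 19.1% and 19.9% of all genes. The median log2 change was 0.12 beside -0.02 for all genes, and 38 members did not overlap, against 73.5% of all genes. The 3 comparisons share libraries, so their calls are not independent of each other.

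By role, TEV against vehicle called 1 of 8 CXC chemokines higher and 2 lower, 2 of 9 CC chemokines higher and 4 lower, and none of 10 colony stimulating factors and interleukins higher and 4 lower. Among 7 TNF superfamily ligands 2 were higher and 3 lower, and among 15 TNF receptor superfamily genes 6 were higher and 6 lower. TEV plus reserpine against TEV called 1 CXC chemokine higher, 1 CC chemokine lower, 2 colony stimulating factors and interleukins higher and 1 lower, 4 TNF superfamily ligands higher and 1 lower, and 7 receptors higher and 2 lower. In TEV plus reserpine against vehicle the counts were 1 higher and 2 lower, 0 and 4, 0 and 3, 1 and 1, and 6 and 2 in the same order of roles. Over all genes, the shares higher and lower in these comparisons were 25.1% and 24.6%, 15.7% and 16%, and 19.1% and 19.9%. Each role holds few genes, and a count near these shares is no result about the role. The 7 ligand and 15 receptor genes of the TNF superfamily held 11 of the 14 higher calls with TEV plus reserpine against TEV. That share depended on the fit, and most of the 11 lost the call in some setting. With only these groups fitted, Cxcl1, Cxcl5, Cxcl10, Ccl20, Csf3, Il1a and Lif were also called higher. Tnfrsf10b and Tnfrsf11b lost the call there.

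**Figure D1:**
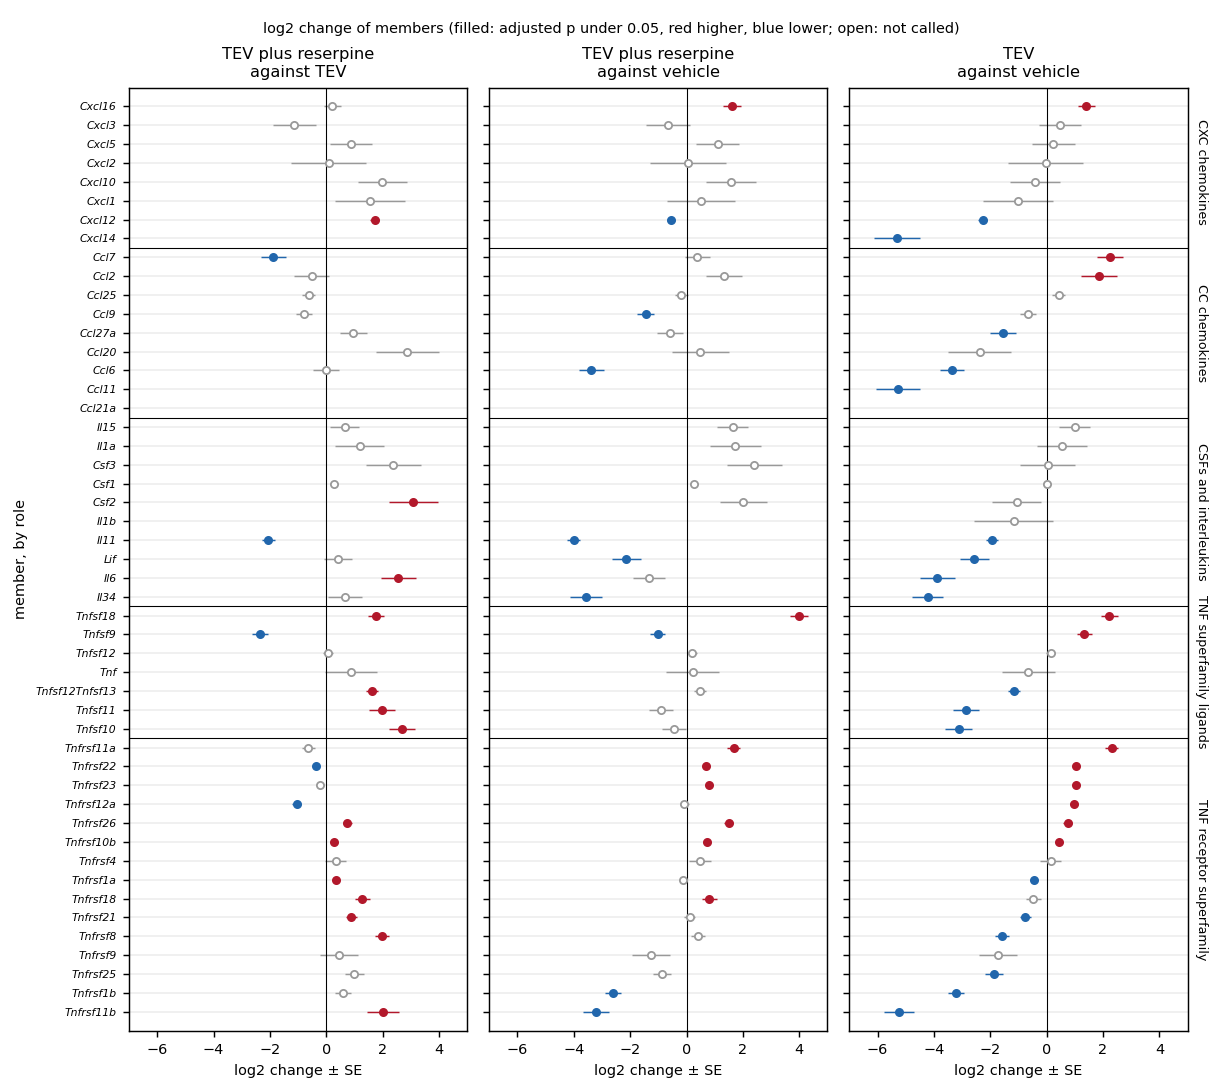
Each row is a member, grouped by role from CXC chemokines at the top to TNF receptor superfamily at the bottom, and the 3 panels show its log2 change with the standard error for TEV plus reserpine set against TEV, then against vehicle, and for TEV against vehicle. Filled points were called at an adjusted p under 0.05, red for higher and blue for lower, open points were not, and pairs with no more than 3 counts in a group have no point; 30 members are filled or at a bound in the panel of TEV against vehicle.

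Several members differed more between the vehicle replicates than between treatments. Among the 46 members with at least 1 CPM in a vehicle library, 16 were at least 2-fold apart between the vehicle libraries, or 34.8%, where 2.87% of 12938 genes were. For the 16 members replicate 2 was the higher library, whereas over all genes 201 were higher in replicate 2 and 170 in replicate 1. They included 6 of 8 CXC chemokines, 3 of 9 CC chemokines and 6 of 9 colony stimulating factors and interleukins, but 0 of 6 TNF superfamily ligands and 1 of 14 receptors. The same count was 1 of 39 members between the TEV plus reserpine libraries, Tnfsf10, and 2 of 34 between the TEV libraries, Ccl27a and Tnfrsf9. Over all genes these shares were 2.98% and 2.35%.

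The gap was widest for Cxcl2 and Cxcl1, which encode neutrophil attractants. Cxcl2 had 0.0697 CPM in vehicle replicate 1, or 2.55 estimated counts, and 14.4 CPM in replicate 2, a CPM ratio of 207. With unrounded counts and no TMM factors the ratio was 245 (95% counting interval 70.9 to 1016). For Cxcl1 replicate 2 was 60.8-fold higher, for Csf3 19.6-fold, for Ccl20 18.6-fold, for Il1a 13.3-fold and for Cxcl10 11.5-fold. Csf2, Cxcl5, Cxcl3 and Ccl2 were 8.70-fold, 8.05-fold, 6.12-fold and 5.29-fold higher in replicate 2. Lif, Il6, Ccl7, Tnfrsf9 and Cxcl16 were 3.44-fold, 3.36-fold, 3.16-fold, 2.38-fold and 2.14-fold higher there. Il1b had no count in replicate 1 and 33.4 estimated counts in replicate 2, at least 16.8-fold higher against a floor of 3 counts. These genes encode secreted inflammatory factors apart from Tnfrsf9, the costimulatory receptor CD137, and Cxcl16, which is made as a membrane protein. Both TEV libraries lay between the vehicle libraries for 10 of the 16 members, and both TEV plus reserpine libraries for 5 with over 3 counts in each of them, namely Cxcl1, Cxcl2, Cxcl3, Ccl7 and Ccl20. Counting intervals and floors cover counting error only.

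**Figure D2:**
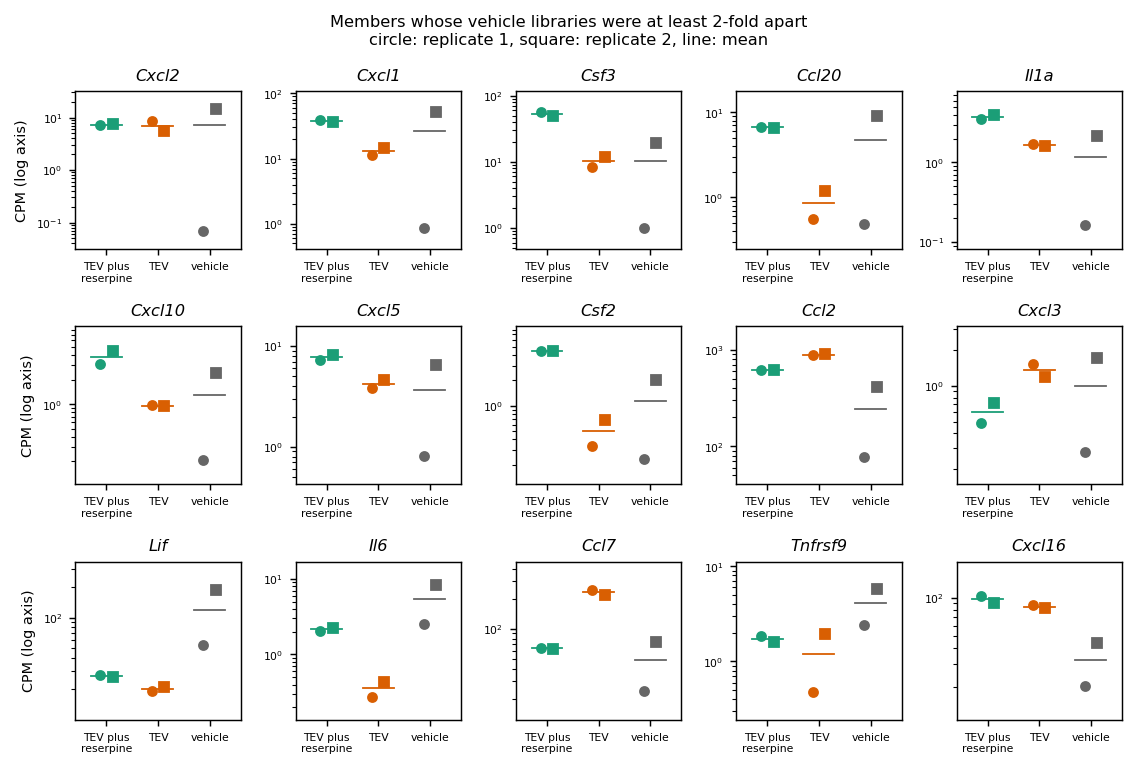
CPM on a log axis of 15 of the 16 members whose vehicle libraries were at least 2-fold apart (Il1b, with no count in vehicle replicate 1, is left out), for TEV plus reserpine, TEV and vehicle from left to right. Circles are replicate 1, squares replicate 2 and lines the group mean; in each panel the vehicle square lies above the vehicle circle.

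Among other genes, the vehicle libraries were also apart for 4 of 19 NF-kB subunits, kinases and inhibitors, with replicate 2 higher. The NF-kB genes were Nfkb2 at 22.0 and 71.3 CPM, Relb at 17.7 and 37.4 CPM, Nfkbia, the gene of the inhibitor that holds NF-kB in the cytoplasm, at 35.7 and 86.2 CPM, and Tnfaip3, the gene of the feedback inhibitor A20, at 15.4 and 40.9 CPM. The same held for 2 of 8 TNF family genes under other symbols and for 1 of 8 genes each of the STAT3 pathway and of cytokine mRNA decay, while 2 of 20 interleukin and colony factor receptors were apart in opposite directions. None of the 17 adaptors of the TNF receptors and none of the endothelial, fibroblast, pericyte or leukocyte markers tested for it was 2-fold apart there. Whether this difference between the vehicle libraries came from the cultures, the RNA or the sequencing was not tested.

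**Figure D3:**
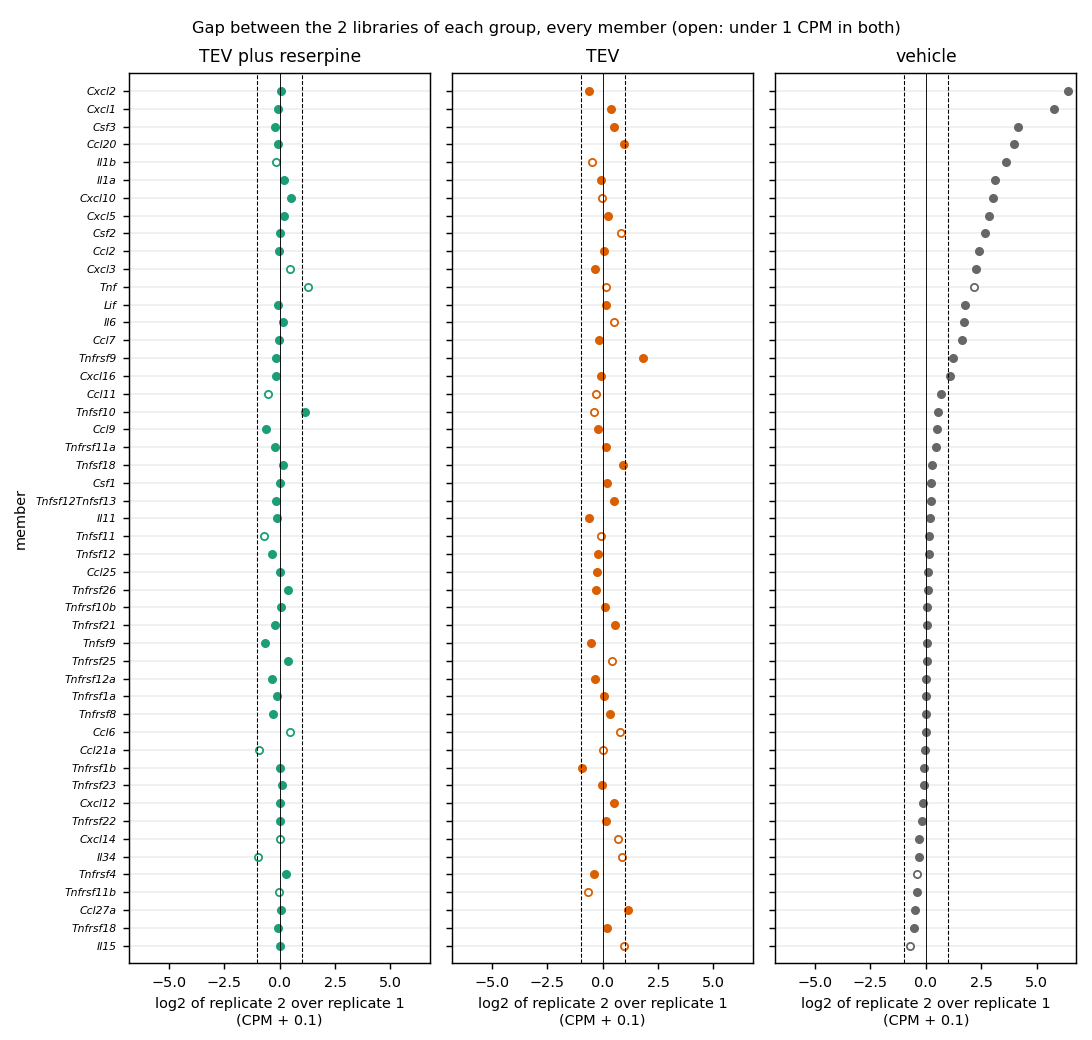
For each member, the log2 ratio of replicate 2 to replicate 1, computed on CPM plus 0.1, in TEV plus reserpine, TEV and vehicle; open points had under 1 CPM in both libraries and dashed lines mark 2-fold. Points beyond the lines number 1 of 39, 2 of 34 and 16 of 46 members with at least 1 CPM, and those of vehicle lie on the side where replicate 2 is higher.

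Promoter sequences are shown for 6 members with vehicle libraries apart, picked from those that hold a match to the consensus of the kB site. That motif played no part in calling vehicle libraries apart. RefSeq promoters of GRCm38.p6 were matched for 34 of the 49 members, and the consensus of the kB site, searched on both strands, was found in 13 of the 34. It was in 8 of 11 matched members with vehicle libraries apart, in 5 of 21 with vehicle libraries not apart and in 0 of 2 under 1 CPM, whereas 9.55% of the 27025 genes in the table had a promoter that held it. Members apart without a match were Csf2, Il1a and Il1b, and Csf1, not apart, had one. Ccl2, Ccl7, Csf3, Cxcl5 and Cxcl16, also apart, had no promoter in the table. Most of the 21 not apart are TNF superfamily genes, so the sets differ in gene family too. A link between the motif and the gap was not tested. The letters GGGAATTTCC, on either strand, were in Cxcl1, Cxcl2 and Cxcl3 and in 29 genes in all, or 0.107%. Below are the 130 bases before the start of 6 of these genes, 5′ to 3′ on the gene's strand, with matches to the kB consensus, overlapping ones merged, in capitals.
Cxcl1: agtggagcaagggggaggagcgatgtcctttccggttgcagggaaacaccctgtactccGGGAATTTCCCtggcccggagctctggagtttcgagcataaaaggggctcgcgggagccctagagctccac
Cxcl2: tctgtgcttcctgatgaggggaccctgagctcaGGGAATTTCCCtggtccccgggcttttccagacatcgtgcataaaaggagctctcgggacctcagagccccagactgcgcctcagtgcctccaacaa
Cxcl3: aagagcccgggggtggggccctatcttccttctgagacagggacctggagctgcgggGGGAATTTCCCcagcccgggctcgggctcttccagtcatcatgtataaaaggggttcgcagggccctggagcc
Cxcl10: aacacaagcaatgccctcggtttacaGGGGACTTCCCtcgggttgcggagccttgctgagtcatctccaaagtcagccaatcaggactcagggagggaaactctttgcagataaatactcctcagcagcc
Ccl20: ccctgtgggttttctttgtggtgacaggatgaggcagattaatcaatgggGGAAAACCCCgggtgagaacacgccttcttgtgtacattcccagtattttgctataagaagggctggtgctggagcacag
Il6: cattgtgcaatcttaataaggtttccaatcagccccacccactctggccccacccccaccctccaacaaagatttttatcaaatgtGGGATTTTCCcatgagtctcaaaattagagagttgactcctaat
The Cxcl1, Cxcl2 and Cxcl3 matches begin 71, 97 and 73 bases before the start, and those of Cxcl10, Ccl20 and Il6 begin 104, 80 and 44 bases before it. The windows are chr5:90891115-90891244 (plus strand) for Cxcl1, chr5:90903769-90903898 (plus strand) for Cxcl2, chr5:90785971-90786100 (plus strand) for Cxcl3, chr5:92348890-92349019 (minus strand) for Cxcl10, chr1:83116636-83116765 (plus strand) for Ccl20, chr5:30012984-30013113 (plus strand) for Il6. A match describes letters in the window; binding was not measured. Cxcl1 and Cxcl2 have no protein-coding gene between them, and 1 lies between Cxcl3 and Cxcl1.

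For several of these members TEV against vehicle gave no call, and the direction depended on the vehicle library. Cxcl1, a neutrophil attractant, was at 38.5 and 36.4 CPM for TEV plus reserpine, 11.2 and 14.5 CPM for TEV, and 0.859 and 52.2 CPM for vehicle. With both vehicle libraries its adjusted p was 0.523 for TEV against vehicle. Without vehicle replicate 1 the log2 change was -2.01 (adjusted p = 0.000558), and without vehicle replicate 2 it was 3.91 (adjusted p = 0.000254). Opposite calls also came for Csf3, with -0.94 (adjusted p = 0.0201) without replicate 1 and 3.35 (adjusted p = 0.00066) without replicate 2, and for Cxcl10, with -1.33 (adjusted p = 0.0371) and 2.18 (adjusted p = 0.0193). Each of these fits rests on a lone vehicle library, which is assumed to vary like the libraries of the other groups. Without vehicle replicate 1 Cxcl2 was lower with TEV, at -1.06 (adjusted p = 0.0276), and without replicate 2 it was higher by a ratio of 101 (95% counting interval 29.2 to 416, adjusted p = 0.000407). Likewise Il1b was lower at -2.23 (adjusted p = 0.0407) without replicate 1 and at least 3.02-fold higher, against a floor of 3 counts, without replicate 2 (adjusted p = 0.0367). For these 5 genes no direction of the change with TEV can therefore be given. Nor can it be given for Cxcl3, Cxcl5, Ccl20, Csf2 and Il1a, whose log2 changes turned sign with the vehicle library left out. Without vehicle replicate 1 and 2 they were -0.34 and 2.26 for Cxcl3, and -0.63 and 2.37 for Cxcl5. For Ccl20 they were -3.32 and 0.87, for Csf2 -1.95 and 1.15, and for Il1a -0.39 and 3.32.

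The vehicle libraries also enter the shared spread of the model, and with either vehicle library left out 8 members gained a call for TEV plus reserpine against TEV. The log2 changes, with both adjusted p-values (without vehicle replicate 1, without vehicle replicate 2), were 1.54 for Cxcl1 (0.00208, 0.00251), 0.88 for Cxcl5 (0.0252, 0.03), 1.99 for Cxcl10 (0.00894, 0.0117) and 2.88 for Ccl20 (0.00406, 0.00539). They were 2.38 for Csf3 (0.00125, 0.00129), 1.18 for Il1a (0.0244, 0.0311), 0.42 for Lif (0.0342, 0.0444) and -0.52 for Ccl2 (0.00701, 0.00744). The calls came again when the TEV plus reserpine and TEV libraries were fitted by themselves. With the 6 libraries none of the 8 was called in this comparison, and the adjusted p-values lay between 0.0918 for Ccl20 and 0.556 for Lif. Their TEV plus reserpine and TEV libraries did not overlap, as for 70.7% of all genes.

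Cxcl12, the ligand of CXCR4 that holds blood progenitors and leukocytes in tissues, was at 209 and 212 CPM for TEV plus reserpine, 52.9 and 74.4 CPM for TEV, and 324 and 292 CPM for vehicle. The groups did not overlap, with TEV lowest and TEV plus reserpine between the other groups. With TEV it fell against vehicle by 2.27 ± 0.16 on the log2 scale (SE, adjusted p = 8.3e-05). It was higher with TEV plus reserpine than with TEV by 1.72 ± 0.16 (adjusted p = 0.00097) and lower than with vehicle, at -0.55 ± 0.15 (adjusted p = 0.0292). The last call did not hold without either library of vehicle or of TEV plus reserpine, with adjusted p-values of 0.126 and 0.0568 without vehicle replicates 1 and 2, and 0.121 and 0.0994 without TEV plus reserpine replicates 1 and 2.

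Ackr3, whose product scavenges CXCL12, had the same order of groups, at 46.6 and 47.3 CPM for TEV plus reserpine, 6.64 and 12.0 CPM for TEV, and 60.1 and 61.2 CPM for vehicle. Its log2 change was -2.68 for TEV against vehicle (adjusted p = 0.000247) and 2.31 for TEV plus reserpine against TEV (adjusted p = 0.00156). Cxcr4, the signalling receptor, was at 86.9 and 81.9 CPM, 73.9 and 62.8 CPM, and 82.5 and 96.9 CPM in that order. It was called lower with TEV against vehicle, at -0.39 (adjusted p = 0.0305), a call lost without vehicle replicate 2 (adjusted p = 0.17) or TEV replicate 2 (adjusted p = 0.133).

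Cxcl16, the membrane-bound ligand of CXCR6, was at 104 and 91.2 CPM for TEV plus reserpine, 87.3 and 82.2 CPM for TEV, and 20.5 and 43.9 CPM for vehicle. It rose with TEV against vehicle by 1.41 ± 0.31 (adjusted p = 0.00924) and with TEV plus reserpine against vehicle by 1.61 ± 0.31 (adjusted p = 0.00769). Without vehicle replicate 2 these log2 changes were 2.05 and 2.25. Cxcl14, a chemokine of epithelia and stroma, had no count in either TEV plus reserpine library, 0 and 0.0637 CPM for TEV, and 1.90 and 1.53 CPM for vehicle. It was lower with TEV against vehicle, at -5.31 ± 0.83 (adjusted p = 0.00345), or -4.68 without TEV replicate 1, and at least 34.6-fold lower with TEV plus reserpine against vehicle.

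The remaining CXC members were not called in the fit of 6 libraries. Cxcl2 was at 7.15 and 7.52 CPM for TEV plus reserpine, 8.44 and 5.54 CPM for TEV, and 0.0697 and 14.4 CPM for vehicle (adjusted p = 0.985 for TEV against vehicle). Cxcl3 was at 0.491 and 0.718 CPM, 1.53 and 1.18 CPM, and 0.279 and 1.71 CPM in the same order (adjusted p = 0.621). Cxcl5 was at 7.28 and 8.24 CPM, 3.83 and 4.60 CPM, and 0.813 and 6.55 CPM (adjusted p = 0.824). These 3 encode further ligands of CXCR2, and their TEV libraries lay between the vehicle libraries. Cxcl10, an interferon-inducible attractant of T cells, was at 3.08 and 4.51 CPM, 0.972 and 0.942 CPM, and 0.209 and 2.40 CPM (adjusted p = 0.729). For Cxcl1, Cxcl5 and Cxcl10 both TEV plus reserpine libraries were above both TEV libraries.

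Ccl2 and Ccl7, neighbouring genes whose products attract monocytes through CCR2, were the CC chemokines that rose with TEV against vehicle. Ccl2 was at 620 and 616 CPM for TEV plus reserpine, 871 and 907 CPM for TEV, and 77.6 and 411 CPM for vehicle, and both vehicle libraries were below the other 4. Its log2 change with TEV was 1.87 ± 0.64 (adjusted p = 0.0484), or 1.11 (adjusted p = 0.000626) without vehicle replicate 1 and 3.52 (adjusted p = 2.75e-05) without replicate 2. The call was lost with library size alone (adjusted p = 0.0608), when TEV and vehicle were fitted by themselves (adjusted p = 0.0759), and without TEV replicate 1 (0.109) or 2 (0.113) or TEV plus reserpine replicate 1 (0.0747) or 2 (0.0761). Set against vehicle, TEV plus reserpine gave no call for Ccl2 (adjusted p = 0.139), but Ccl2 was called higher without vehicle replicate 1, at 0.59 (adjusted p = 0.00871), or replicate 2, at 2.99 (adjusted p = 5.24e-05).

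Ccl7 was at 64.6 and 62.5 CPM for TEV plus reserpine, 247 and 220 CPM for TEV, and 23.6 and 74.5 CPM for vehicle. The TEV libraries were the highest, and those of TEV plus reserpine lay between the vehicle libraries. Ccl7 rose with TEV against vehicle by 2.26 ± 0.46 (adjusted p = 0.00668), or 1.65 and 3.31 without vehicle replicate 1 and 2. Ccl7 fell by 1.88 ± 0.45 with TEV plus reserpine against TEV (adjusted p = 0.0226), a call lost without TEV replicate 1 (adjusted p = 0.0857) or TEV plus reserpine replicate 1 (0.0959) or 2 (0.101). Its change with TEV plus reserpine against vehicle was not called (adjusted p = 0.531); without vehicle replicate 2 it was 1.43 (adjusted p = 0.00105).

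The 4 CC chemokine members called lower with TEV against vehicle were Ccl6, Ccl11, Ccl21a and Ccl27a. Among tested CC chemokines outside the filtered table, Ccl28 was lower with TEV against vehicle, at -2.49 (adjusted p = 0.0142), and Ccl5 was higher with TEV plus reserpine against vehicle, by 1.99 (adjusted p = 0.0261). Ccl8 had no count in the TEV plus reserpine libraries, at least 6.77-fold lower against TEV (adjusted p = 0.00851) and at least 12.5-fold lower against vehicle (adjusted p = 0.00335). Ccl6, in mouse a ligand of CCR1, was at 0.268 and 0.402 CPM for TEV plus reserpine, 0.222 and 0.446 CPM for TEV, and 3.58 and 3.59 CPM for vehicle. Its log2 change was -3.36 ± 0.42 for TEV (adjusted p = 0.000889), or -3.99 without TEV replicate 2, and -3.38 ± 0.44 for TEV plus reserpine against vehicle (adjusted p = 0.00162). Ccl11, the eosinophil attractant eotaxin, was at 0.0447 and 0 CPM, 0.0555 and 0.0255 CPM, and 1.14 and 1.92 CPM in the same order. It was lower with TEV at -5.27 ± 0.78 (adjusted p = 0.00171), and lower with TEV plus reserpine than with vehicle by a ratio of 85.5 (95% counting interval 14.9 to 3377). Ccl21a, the CCR7 ligand best known from lymphatic endothelium and lymph node stroma, was at 0.0893 and 0 CPM, no count in either TEV library, and 2.44 and 2.40 CPM. It was at least 101-fold lower with TEV than with vehicle (adjusted p = 0.0012) and lower with TEV plus reserpine by a ratio of 74.3 (19.6 to 599). The mouse genome holds near-identical copies of Ccl21a and of Ccl27a, so the reads assigned to both are uncertain.

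Ccl27a, a relative of the skin T-cell attractant, was at 1.43 and 1.49 CPM for TEV plus reserpine, 0.416 and 1.04 CPM for TEV, and 2.58 and 1.81 CPM for vehicle. Its change with TEV was -1.55 ± 0.47 (adjusted p = 0.0307), -2.39 without TEV replicate 2, and not called without vehicle replicate 1 (adjusted p = 0.138), TEV replicate 1 (0.0901) or TEV plus reserpine replicate 1 (0.0501). Ccl9, next to Ccl6 in the genome and also a CCR1 ligand in mouse, was at 3.17 and 2.04 CPM, 4.86 and 4.12 CPM, and 5.83 and 8.25 CPM. It was lower with TEV plus reserpine against vehicle, at -1.44 ± 0.30 (adjusted p = 0.00941), and was not called with TEV against vehicle (adjusted p = 0.0976).

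Ccl20, the CCR6 ligand, was at 6.79 and 6.46 CPM for TEV plus reserpine, 0.555 and 1.18 CPM for TEV, and 0.488 and 9.05 CPM for vehicle, with no call in the fit of 6 libraries. Without vehicle replicate 1 it was lower with TEV, at -3.32 (adjusted p = 0.00178), and without replicate 2 it was not called (adjusted p = 0.236). Ccl25, the gut-homing CCR9 ligand, was at 2.46 and 2.47 CPM, 4.16 and 3.44 CPM, and 2.72 and 2.92 CPM, with adjusted p-values of 0.158 for TEV against vehicle and 0.0803 for TEV plus reserpine against TEV. Ccl6, Ccl11, Ccl21a, Cxcl14, Il34, Tnfrsf11b and Tnfsf11 were the 7 members over 1 CPM in both libraries of vehicle and of no other group. These 7 were picked by their level in vehicle, so lower levels with TEV were favoured by the choice. With TEV against vehicle, 10 of 11 fibroblast markers and 11 of 11 pericyte and smooth muscle markers tested were lower. The 1 fibroblast marker called higher was Thy1. Col1a1, for example, was at 10.4 and 10.7 CPM for TEV plus reserpine, 11.7 and 17.3 CPM for TEV, and 1186 and 1035 CPM for vehicle. Whether cells with these markers had a part in the levels of the 7 members was not tested.

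The interleukin-6 type cytokines Il11, Il6 and Lif were each lower with TEV than with vehicle. Il11 was at 3.71 and 3.39 CPM for TEV plus reserpine, 18.0 and 11.7 CPM for TEV, and 53.2 and 60.4 CPM for vehicle, so that the groups formed 3 separate levels. Its log2 change was -1.94 ± 0.21 for TEV against vehicle (adjusted p = 0.000421), -2.06 ± 0.23 for TEV plus reserpine against TEV (adjusted p = 0.00173) and -4.00 ± 0.24 for TEV plus reserpine against vehicle (adjusted p = 7.45e-05). Of the 49 members it was the 1 that was called lower in the 3 comparisons. Il11 is known as a driver of fibrosis and a target of TGF-beta.

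Il6 was at 2.05 and 2.27 CPM for TEV plus reserpine, 0.278 and 0.433 CPM for TEV, and 2.51 and 8.43 CPM for vehicle. Its log2 change with TEV against vehicle was -3.88 ± 0.63 (adjusted p = 0.00251), or -4.51 and -2.77 without vehicle replicate 1 and 2. The level with TEV plus reserpine was higher than with TEV, by 2.55 ± 0.62 (adjusted p = 0.0222). That call was lost with limma-voom (adjusted p = 0.0769) and without TEV replicate 1 (0.111) or 2 (0.0576) or TEV plus reserpine replicate 1 (0.0653) or 2 (0.0788). Against vehicle TEV plus reserpine was not called (adjusted p = 0.103), and without vehicle replicate 1 it was, at -1.96 (adjusted p = 0.0109).

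Lif, the leukaemia inhibitory factor, was at 27.8 and 26.2 CPM for TEV plus reserpine, 19.2 and 21.1 CPM for TEV, and 53.8 and 185 CPM for vehicle. The log2 change with TEV against vehicle was -2.56 ± 0.51 (adjusted p = 0.00622), or -3.20 and -1.41 without vehicle replicate 1 and 2. For TEV plus reserpine against vehicle it was -2.14 ± 0.51 (adjusted p = 0.0166), or -2.78 and -0.99 without vehicle replicate 1 and 2. This call was lost without TEV plus reserpine replicate 1 (adjusted p = 0.0792) or 2 (0.0845).

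Some receptor chains of interleukin-6 type cytokines were read beside Il11, Il6 and Lif. Il6ra and Lifr, further chains for Il6 and Lif, are not reported here. Il6st, the gene of gp130, was at 337 and 371 CPM for TEV plus reserpine, 503 and 455 CPM for TEV, and 316 and 364 CPM for vehicle; it rose with TEV by 0.49 (adjusted p = 0.00706). Il6st was lower with TEV plus reserpine than with TEV, at -0.44 (adjusted p = 0.0202), which was lost without TEV replicate 1 (adjusted p = 0.0954) or TEV plus reserpine replicate 1 (0.0947). Osmr, the receptor chain of oncostatin M, was at 33.1 and 35.2 CPM, 23.0 and 23.0 CPM, and 111 and 120 CPM in the same order. Its log2 changes were -2.33 for TEV against vehicle (adjusted p = 1.01e-05), 0.57 for TEV plus reserpine against TEV (adjusted p = 0.00558) and -1.76 for TEV plus reserpine against vehicle (adjusted p = 5.19e-05). Il11ra1, the specific receptor chain of Il11, was at 34.6 and 29.1 CPM, 28.3 and 31.4 CPM, and 28.7 and 27.2 CPM and was not called in any of the 3 comparisons (lowest adjusted p = 0.271).

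Of the colony stimulating factors, Csf1, which supports macrophages, was at 918 and 940 CPM for TEV plus reserpine, 726 and 826 CPM for TEV, and 697 and 832 CPM for vehicle. It was not called in the fit of 6 libraries (adjusted p = 0.879 for TEV against vehicle, 0.108 for TEV plus reserpine against TEV and 0.0791 against vehicle). Without vehicle replicate 2 it was called higher with TEV plus reserpine against vehicle, at 0.42 (adjusted p = 0.0427). Il34, the other ligand of the Csf1 receptor, was at 0.491 and 0.201 CPM, 0.111 and 0.280 CPM, and 4.39 and 3.52 CPM. It was lower with TEV against vehicle at -4.22 ± 0.56 (adjusted p = 0.00106), or -5.11 without TEV replicate 2. Il34 was also lower with TEV plus reserpine against vehicle, at -3.57 ± 0.56 (adjusted p = 0.00327), or -4.27 without TEV plus reserpine replicate 1.

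Csf2, the granulocyte and macrophage factor, was at 4.42 and 4.45 CPM for TEV plus reserpine, 0.333 and 0.675 CPM for TEV, and 0.232 and 2.02 CPM for vehicle. It was higher with TEV plus reserpine against TEV, by 3.08 ± 0.87 (adjusted p = 0.0364), and by 3.73 without TEV replicate 2. The call was lost without TEV replicate 1 (adjusted p = 0.167) or 2 (0.0777) or TEV plus reserpine replicate 1 (0.0971) or 2 (0.1). Csf3, the granulocyte factor that mobilises neutrophils, was at 56.6 and 49.4 CPM, 8.41 and 11.9 CPM, and 0.999 and 19.5 CPM. Both its TEV plus reserpine libraries lay above the other 4, with adjusted p-values of 0.105 against TEV and 0.0968 against vehicle in the fit of 6 libraries. Against vehicle it was called higher without vehicle replicate 1, at 1.44 (adjusted p = 0.00828), and without replicate 2, at 5.72 (adjusted p = 0.000234).

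The interleukin-1 genes are neighbours and had low levels. Il1a was at 3.48 and 3.99 CPM for TEV plus reserpine, 1.69 and 1.60 CPM for TEV, and 0.163 and 2.16 CPM for vehicle (adjusted p = 0.327 and 0.169 for TEV plus reserpine against TEV and vehicle, and 0.631 for TEV against vehicle). Il1b had 0.898 and 0.896 estimated counts for TEV plus reserpine, 10.8 and 15.3 for TEV, and 0 and 33.4 for vehicle. By these counts Il1b was lower with TEV plus reserpine than with TEV by a ratio of 6.92 (95% counting interval 1.55 to 53.7) and was not called (adjusted p = 0.345). Il1b was thus under the floor of 3 counts in both TEV plus reserpine libraries. Il15, which supports natural killer and memory T cells, was at 1.12 and 1.15 CPM, 0.444 and 0.968 CPM, and 0.464 and 0.244 CPM, with its lowest adjusted p, 0.0527, for TEV plus reserpine against vehicle. Il2rg, whose product is the common gamma chain of the Il15 receptor, was at 67.6 and 72.9 CPM, 70.4 and 63.9 CPM, and 19.0 and 27.0 CPM and rose with TEV against vehicle by 1.55 (adjusted p = 0.000457).

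Among TNF superfamily ligands Tnfsf18, the ligand of the T-cell costimulator GITR and a gene known from endothelium, had the largest change with TEV plus reserpine against vehicle. Tnfsf18 was at 115 and 129 CPM for TEV plus reserpine, 24.4 and 46.6 CPM for TEV, and 6.94 and 8.50 CPM for vehicle, so that the groups formed 3 separate levels. Its log2 change was 2.22 ± 0.30 for TEV against vehicle (adjusted p = 0.00123), 1.77 ± 0.28 for TEV plus reserpine against TEV (adjusted p = 0.00575) and 3.99 ± 0.32 for TEV plus reserpine against vehicle (adjusted p = 0.000206). Its receptor gene Tnfrsf18 was at 5.94 and 5.60 CPM, 2.19 and 2.53 CPM, and 3.90 and 2.65 CPM. Tnfrsf18 was higher with TEV plus reserpine against TEV, by 1.28 ± 0.26 (adjusted p = 0.0121), a call lost without TEV replicate 1 (adjusted p = 0.0649) or TEV plus reserpine replicate 1 (0.0536). Against vehicle it was higher by 0.81 ± 0.25 (adjusted p = 0.0434), a call lost with library size alone (adjusted p = 0.0544) and when any library other than vehicle replicate 1 was left out, with adjusted p-values between 0.0502 and 0.185.

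Tnfsf9, the ligand of CD137, had the opposite pattern with reserpine. It was at 3.53 and 2.21 CPM for TEV plus reserpine, 17.2 and 12.0 CPM for TEV, and 5.69 and 5.88 CPM for vehicle, with TEV highest and TEV plus reserpine lowest. It rose with TEV against vehicle by 1.33 ± 0.27 (adjusted p = 0.00616), and with TEV plus reserpine against TEV it fell by 2.36 ± 0.28 (adjusted p = 0.00222). Against vehicle it was lower at -1.03 ± 0.28 (adjusted p = 0.0275), a call lost with limma-voom (adjusted p = 0.0505) and without vehicle replicate 1 (0.0769) or 2 (0.0787) or TEV plus reserpine replicate 2 (0.124). The receptor gene Tnfrsf9 was at 1.83 and 1.61 CPM, 0.472 and 1.94 CPM, and 2.44 and 5.81 CPM and was not called (adjusted p = 0.0695 for TEV against vehicle). Without vehicle replicate 1 it was called lower with TEV, at -2.22 (adjusted p = 0.0454), as it was with no filter, with DESeq2 and without TEV replicate 2; over the 14 other settings the adjusted p ranged from 0.014 to 0.326.

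A further 3 ligand genes were lower with TEV than with vehicle and higher with TEV plus reserpine than with TEV. Tnfsf10, which encodes the death ligand TRAIL, was at 2.23 and 5.02 CPM for TEV plus reserpine, 0.666 and 0.484 CPM for TEV, and 3.97 and 5.95 CPM for vehicle. It fell with TEV against vehicle by 3.12 ± 0.47 (adjusted p = 0.00189) and was higher with TEV plus reserpine than with TEV by 2.69 ± 0.47 (adjusted p = 0.00791), or 1.98 without TEV plus reserpine replicate 2. Tnfsf11, which encodes the osteoclast factor RANKL, was at 0.938 and 0.545 CPM, 0.194 and 0.178 CPM, and 1.30 and 1.43 CPM. Tnfsf11 fell with TEV by 2.86 ± 0.46 (adjusted p = 0.00241), and with TEV plus reserpine it was higher than with TEV by 1.96 ± 0.46 (adjusted p = 0.0209). The last call was lost without TEV replicate 1 (adjusted p = 0.0806) or 2 (0.0741) or TEV plus reserpine replicate 1 (0.0817). The read-through gene Tnfsf12Tnfsf13 was at 12.4 and 11.0 CPM, 3.11 and 4.42 CPM, and 7.73 and 9.23 CPM, with log2 changes of -1.16 ± 0.22 for TEV against vehicle (adjusted p = 0.00473) and 1.62 ± 0.22 for TEV plus reserpine against TEV (adjusted p = 0.00325). The gene shares exons with Tnfsf12 and Tnfsf13, so its estimated counts are uncertain.

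Tnfsf12 itself, the ligand TWEAK, was at 17.1 and 13.3 CPM for TEV plus reserpine, 15.8 and 13.5 CPM for TEV, and 12.7 and 13.8 CPM for vehicle and was not called (adjusted p-values between 0.393 and 0.833). Tnf, the founding ligand of the family, was at 0.268 and 0.804 CPM, 0.278 and 0.318 CPM, and 0.116 and 0.870 CPM and was not called (adjusted p-values between 0.504 and 0.873). Its groups overlapped in the 3 comparisons.

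**Figure D4:**
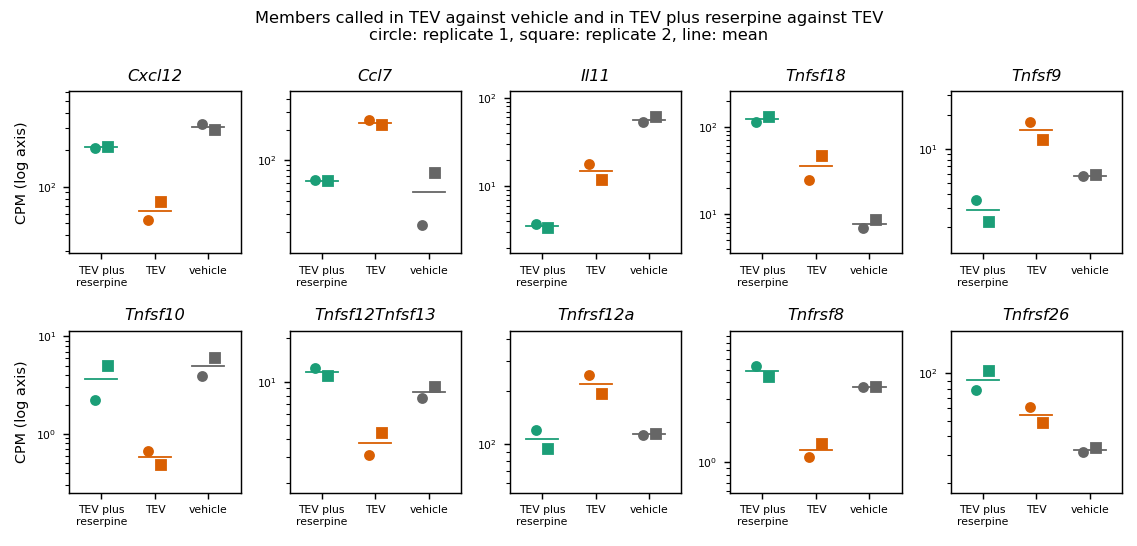
CPM on a log axis of 10 of the members called both for TEV against vehicle and for TEV plus reserpine against TEV, for TEV plus reserpine, TEV and vehicle from left to right, with circles for replicate 1, squares for replicate 2 and lines for the mean. Il11 steps down and Tnfsf18 steps up with the vesicles and again with reserpine, Tnfrsf26 is highest with reserpine, and the other panels turn back towards or past the vehicle level.

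Receptors of the TNF superfamily changed in both directions. Tnfrsf12a, the TWEAK receptor Fn14, was at 120 and 94.0 CPM for TEV plus reserpine, 250 and 194 CPM for TEV, and 112 and 114 CPM for vehicle. It rose with TEV against vehicle by 0.97 ± 0.16 (adjusted p = 0.0025) and fell with TEV plus reserpine against TEV by 1.05 ± 0.16 (adjusted p = 0.00465). TEV plus reserpine and vehicle overlapped for it (adjusted p = 0.709). Tnfrsf11a, the RANKL receptor RANK, was at 4.96 and 4.33 CPM, 6.83 and 7.61 CPM, and 1.23 and 1.71 CPM and was higher than vehicle by 2.31 ± 0.24 with TEV (adjusted p = 0.000398) and by 1.67 ± 0.24 with TEV plus reserpine (adjusted p = 0.00233). Tnfrsf11b, the soluble RANKL decoy osteoprotegerin, was at 0.357 and 0.344 CPM, 0.139 and 0.0509 CPM, and 3.76 and 2.79 CPM. It was lower than vehicle by a log2 change of -5.23 ± 0.53 with TEV (adjusted p = 0.000355), or -5.91 and -4.52 without TEV replicate 1 and 2, and of -3.22 ± 0.47 with TEV plus reserpine (adjusted p = 0.00247).

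Tnfrsf11b was higher with TEV plus reserpine than with TEV, by 2.01 ± 0.56 (adjusted p = 0.0358), and by 2.71 without TEV replicate 1. That call was lost with limma-voom (adjusted p = 0.0557), in the fit of these groups alone (0.0719) and without vehicle replicate 1 (0.0668) or 2 (0.0577), TEV replicate 2 (0.128, log2 change 1.32) or TEV plus reserpine replicate 1 (0.0956) or 2 (0.105). Against vehicle, TEV had a higher level of the gene of the RANKL receptor and lower levels of the genes of RANKL and its decoy. Tnfsf11 and Tnfrsf11b are among the 7 members over 1 CPM in both libraries of vehicle and of no other group. The part of this choice of members in their lower levels was not tested.

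Tnfrsf10b is the death receptor for TRAIL in mouse, and Tnfrsf22 and Tnfrsf23, neighbours of Tnfrsf26, encode mouse decoy receptors for it. Tnfrsf10b was at 206 and 214 CPM for TEV plus reserpine, 170 and 181 CPM for TEV, and 125 and 131 CPM for vehicle, with log2 changes of 0.45 ± 0.08 for TEV against vehicle (adjusted p = 0.00302) and 0.71 ± 0.08 for TEV plus reserpine against vehicle (adjusted p = 0.000695). Its change with TEV plus reserpine against TEV was 0.26 ± 0.08 (adjusted p = 0.0414), and that call was lost in 8 of the 14 other settings. Tnfrsf23 was at 258 and 275 CPM, 316 and 308 CPM, and 158 and 147 CPM and rose against vehicle by 1.03 ± 0.08 with TEV (adjusted p = 0.00011) and by 0.80 ± 0.08 with TEV plus reserpine (adjusted p = 0.000434). Tnfrsf22 was at 183 and 185 CPM, 224 and 249 CPM, and 122 and 107 CPM and rose by 1.05 ± 0.10 (adjusted p = 0.000243) and by 0.69 ± 0.10 (adjusted p = 0.00208). Tnfrsf22 was lower with TEV plus reserpine than with TEV, at -0.36 ± 0.10 (adjusted p = 0.0298), which was lost with library size alone (adjusted p = 0.0699) and without TEV replicate 2 (0.108) or TEV plus reserpine replicate 1 (0.11) or 2 (0.0966). Tnfrsf22 and Tnfrsf23 are alike in sequence, so reads may be shared between them.

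Tnfrsf26, a further receptor of that cluster, was at 78.7 and 104 CPM for TEV plus reserpine, 60.6 and 48.4 CPM for TEV, and 31.3 and 33.5 CPM for vehicle. It rose with TEV against vehicle by 0.75 ± 0.16 (adjusted p = 0.00895) and with TEV plus reserpine against vehicle by 1.50 ± 0.17 (adjusted p = 0.000795). Tnfrsf26 was higher with TEV plus reserpine than with TEV by 0.75 ± 0.16 (adjusted p = 0.0157), which was lost without TEV replicate 2 (adjusted p = 0.0542) or TEV plus reserpine replicate 2 (0.0691). Thus the 4 TRAIL receptor and cluster genes were above vehicle with and without reserpine, while Tnfsf10 itself was below vehicle with TEV.

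The receptors of TNF were lower with TEV than with vehicle. Tnfrsf1b, the inducible TNF receptor without a death domain, was at 4.87 and 4.91 CPM for TEV plus reserpine, 4.36 and 2.27 CPM for TEV, and 30.7 and 29.4 CPM for vehicle. Its log2 change was -3.21 ± 0.29 for TEV against vehicle (adjusted p = 0.000237) and -2.62 ± 0.29 for TEV plus reserpine against vehicle (adjusted p = 0.000776). Tnfrsf1a, the widely expressed TNF receptor with a death domain, was at 176 and 160 CPM, 130 and 137 CPM, and 180 and 183 CPM. It fell with TEV against vehicle by 0.44 ± 0.08 (adjusted p = 0.00423), and with TEV plus reserpine it was higher than with TEV by 0.33 ± 0.08 (adjusted p = 0.023), a call lost without TEV replicate 1 (adjusted p = 0.102) or TEV plus reserpine replicate 1 (0.0984).

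Of the receptors best known from lymphocytes and neurons, Tnfrsf8, the gene of CD30, is the neighbour of Tnfrsf1b and was at 5.36 and 4.39 CPM for TEV plus reserpine, 1.08 and 1.37 CPM for TEV, and 3.67 and 3.69 CPM for vehicle. Tnfrsf8 fell with TEV against vehicle by 1.57 ± 0.25 (adjusted p = 0.00232) and was higher with TEV plus reserpine than with TEV by 1.97 ± 0.25 (adjusted p = 0.00271). Tnfrsf21, the death receptor DR6, was at 19.2 and 16.4 CPM, 7.80 and 11.4 CPM, and 16.0 and 16.7 CPM. Tnfrsf21 fell with TEV by 0.76 ± 0.20 (adjusted p = 0.0171), a call lost without vehicle replicate 1 (adjusted p = 0.0509) or 2 (0.0629) or TEV replicate 1 (0.0546). It was higher with TEV plus reserpine than with TEV by 0.88 ± 0.20 (adjusted p = 0.0174), a call lost without TEV replicate 1 (adjusted p = 0.0561) or TEV plus reserpine replicate 1 (0.0853). Tnfrsf25, the death receptor DR3, was at 1.16 and 1.52 CPM, 0.555 and 0.777 CPM, and 2.44 and 2.51 CPM and fell with TEV against vehicle by 1.87 ± 0.33 (adjusted p = 0.00385). Tnfrsf4, the costimulator OX40 and neighbour of Tnfrsf18, was at 1.03 and 1.26 CPM, 1.06 and 0.789 CPM, and 0.952 and 0.696 CPM and was not called in any of the 3 comparisons.

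Levels of different members were compared per kilobase of merged exons, which could be had for 48 of the 49. On that scale Ccl2 was the highest member in each library apart from vehicle replicate 1, at 545 and 541 CPM per kb for TEV plus reserpine, 765 and 797 for TEV, and 68.2 and 361 for vehicle. Csf1 was at 174 and 178 CPM per kb for TEV plus reserpine, 137 and 156 for TEV, and 132 and 157 for vehicle, and led in vehicle replicate 1. Ccl7 was at 80.6 and 78.1, 308 and 275, and 29.5 and 93.0 CPM per kb, and so above Csf1 in the TEV libraries and below it in the others. Tnfsf18 was at 55.5 and 62.6, 11.8 and 22.5, and 3.36 and 4.11 CPM per kb, and Csf3 at 40.1 and 34.9, 5.95 and 8.39, and 0.707 and 13.8 CPM per kb.

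Other genes of these pathways were read from lists. Over all genes, 25.1% were called higher and 24.6% lower with TEV against vehicle. For TEV plus reserpine the shares were 15.7% and 16% against TEV and 19.1% and 19.9% against vehicle. List counts near these shares, here and in the next paragraphs, are no result about the list. Of 3 other chemokines tested, TEV against vehicle called 0 higher and 1 lower and TEV plus reserpine against TEV 2 higher and 0 lower. The leading one was Cx3cl1, the membrane-anchored chemokine fractalkine, at 107 and 98.8 CPM for TEV plus reserpine, 13.5 and 18.6 CPM for TEV, and 17.9 and 27.9 CPM for vehicle. It was higher with TEV plus reserpine by 2.67 ± 0.24 against TEV (adjusted p = 0.000896) and by 2.18 ± 0.24 against vehicle (adjusted p = 0.000704), and TEV against vehicle was not called (adjusted p = 0.118). Of 14 chemokine receptors tested 0 were higher and 3 lower with TEV against vehicle, and 3 higher and 0 lower with TEV plus reserpine against TEV. The 3 higher with reserpine were Ackr3, Cxcr3 and Ackr1, the venular chemokine carrier, which was at 7.91 and 7.44 CPM, 1.42 and 2.20 CPM, and 2.07 and 3.86 CPM (log2 change against TEV 2.06, adjusted p = 0.00796).

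Of 22 interleukin and colony factor receptors and inhibitors, 4 were higher and 8 lower with TEV against vehicle, 7 higher and 1 lower with TEV plus reserpine against TEV, and 3 higher and 8 lower with TEV plus reserpine against vehicle. Of 9 TNF family genes under other symbols the counts were 1 and 4, 1 and 1, and 1 and 5. Ngfr, the low-affinity neurotrophin receptor, was at 0.268 and 0.402 CPM for TEV plus reserpine, 0.500 and 0.267 CPM for TEV, and 12.7 and 13.3 CPM for vehicle, with a log2 change of -5.15 for TEV (adjusted p = 6.44e-05). Cd40, which receives signals from activated T cells and platelets, was at 8.04 and 6.72 CPM, 4.28 and 2.95 CPM, and 16.7 and 21.0 CPM, with -2.39 for TEV (adjusted p = 0.000314). Fas, the death receptor, was at 15.6 and 16.6 CPM, 6.89 and 8.25 CPM, and 3.07 and 8.32 CPM; it was higher with TEV plus reserpine against vehicle by 1.52 (adjusted p = 0.0271), or 2.39 without vehicle replicate 2. That call was lost without TEV plus reserpine replicate 1 (adjusted p = 0.0791) or 2 (0.0924).

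Of 17 TNF receptor adaptors and death signalling genes, 6 were higher and 1 lower with TEV against vehicle, 1 higher and 5 lower with TEV plus reserpine against TEV, and 2 and 2 with TEV plus reserpine against vehicle. Cflar, the caspase-8 inhibitor c-FLIP, was at 193 and 236 CPM for TEV plus reserpine, 399 and 331 CPM for TEV, and 241 and 215 CPM for vehicle. It rose with TEV by 0.68 (adjusted p = 0.00626) and fell with TEV plus reserpine against TEV by 0.76 (adjusted p = 0.00849). Of 19 NF-kB subunits, kinases and inhibitors the counts were 4 and 4, 3 and 2, and 2 and 3, near or under the shares over all genes. Ikbkb, an activating kinase, was at 94.6 and 92.2 CPM, 132 and 118 CPM, and 63.0 and 60.4 CPM and rose with TEV by 1.02 (adjusted p = 0.000193), while Bcl3, a nuclear partner of NF-kB, was at 4.96 and 3.16 CPM, 1.50 and 1.39 CPM, and 8.06 and 13.4 CPM and fell by 2.89 (adjusted p = 0.00066). Of 8 STAT3 pathway and SOCS feedback genes the counts were 2 and 3, 0 and 1, and 1 and 4. Bcl6, a transcriptional repressor, was at 17.6 and 17.3 CPM, 175 and 127 CPM, and 25.2 and 24.9 CPM, a log2 change of 2.59 for TEV against vehicle (adjusted p = 4.67e-05) and -3.11 for TEV plus reserpine against TEV (adjusted p = 0.000267).

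Among 8 genes of cytokine mRNA decay, 3 were higher and 1 lower with TEV against vehicle, 1 higher and 3 lower with TEV plus reserpine against TEV, and 1 and 1 with TEV plus reserpine against vehicle. Zfp36l2, whose product binds AU-rich mRNA tails, was at 167 and 162 CPM for TEV plus reserpine, 28.8 and 41.6 CPM for TEV, and 211 and 188 CPM for vehicle, a log2 change of -2.49 for TEV (adjusted p = 7.6e-05) and 2.22 for TEV plus reserpine against TEV (adjusted p = 0.000671). Its relative Zfp36l1 was at 90.2 and 91.5 CPM, 273 and 232 CPM, and 90.0 and 116 CPM, with 1.30 (adjusted p = 0.000443) and -1.47 (adjusted p = 0.00106). The related genes thus moved in opposite directions in both comparisons. Of 9 genes of shedding and processing the counts were 1 and 2, 1 and 2, and 2 and 1. Rhbdf2, needed in mouse for maturation of the TNF-releasing protease, was at 87.8 and 76.3 CPM, 174 and 131 CPM, and 43.4 and 54.3 CPM and rose with TEV by 1.64 (adjusted p = 0.000421). Timp3, the inhibitor of that protease, was at 178 and 200 CPM, 366 and 301 CPM, and 860 and 648 CPM and fell with TEV by 1.18 (adjusted p = 0.00118) and with TEV plus reserpine against vehicle by 1.99 (adjusted p = 0.000225).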

How the data were processed

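Poly(A) RNA of 6 libraries was sequenced as 75 bp single-end reads on a NextSeq 500, per the labels' protocols; the sources used here do not give the strand. Reads were quantified with kallisto 0.45.0 and handled in R 4.0.0 with edgeR and limma, per the submitters' processing notes, which name the build GRCh38 although the symbols are those of mouse genes. The authors deposited a raw and a filtered table of estimated counts per gene symbol. The filtered table held the same values as the raw one, with 0 differences, so no normalization had been applied, and 94.8% of values above 0 were over 0.01 from a whole number. The unused columns of per-sample values number 0.

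Estimated counts of the raw table were rounded, filtered with filterByExpr (15035 genes) and normalized by TMM, with factors of 0.941 to 1.04. A model of the 3 groups with 3 residual degrees of freedom was tested with edgeR's quasi-likelihood test, with Benjamini-Hochberg adjustment over all genes and calls at an adjusted p under 0.05. Standard errors are those implied by the test statistic. CPM were computed here. R 4.3.3, edgeR 4.0.16, limma 3.58.1, DESeq2 1.42.0, Python 3.11.15, pandas 2.3.3 and matplotlib 3.10.9 were used. The fit was also run on a simulated set with 100 genes changed by a log2 change of 1 and 100 by 2. It recovered 91 and 100 of them, with 18 false calls among the unchanged genes. Other random draws recovered fewer of the genes changed by 1.

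Groups and replicate numbers follow the sample titles; the series text is ambiguous and could mean reserpine for all cells. The members and lists were chosen with earlier results of these data known. Every tested member could be named with its values, its log2 change where called. From each pathway list, the rule permitted the called genes with the 3 largest changes in a comparison and genes whose products are receptors, adaptors or inhibitors of members; those named were picked with their values in view. Replicates were called apart at 2-fold on CPM plus 0.1, for genes with at least 1 CPM in a library of the group. Where a group had no count, the change is a bound against 3 counts over the group, and where it had 1 to 3 counts a ratio with a 95% counting interval. Promoters came from RefSeq and exon lengths from GENCODE M21. Alternatives were DESeq2 size factors, library size alone, no filter, the authors' filter, DESeq2, limma-voom, the replicate number as a block, a fit of only the groups compared, and leaving out each library. The titles say nothing of a shared culture or animal, so no pairing was used. Same-numbered libraries did not deviate together over all genes, which cannot exclude a pairing in few genes.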

Additional observations from a re-analysis of the deposited data

How the results depend on the processing

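Of 65 called and fitted log2 changes of members, none changed sign in any of the settings run. Calls lost numbered 0 with DESeq2 size factors, the authors' filter or DESeq2, 1 with no filter, 3 each with library size alone, limma-voom or only the groups compared, and 4 with the replicate number as a block. They numbered 6 and 6 without vehicle replicate 1 and 2, 12 and 8 without TEV replicate 1 and 2, and 15 and 12 without TEV plus reserpine replicate 1 and 2. Leaving out a library gave 10 to 19 members called higher with TEV against vehicle, 6 to 19 higher and 3 to 6 lower with TEV plus reserpine against TEV, and 7 to 18 higher with TEV plus reserpine against vehicle. Pathway list genes called ranged from 8 to 16 lower with TEV plus reserpine against TEV, and from 8 to 21 higher and 14 to 27 lower against vehicle. Over all genes, 1075 to 2184 were higher and 1078 to 2155 lower with TEV plus reserpine against TEV, and 1836 to 2997 higher and 1837 to 3009 lower against vehicle. Of 120 called values of pathway list genes, 51 lost the call in some setting, 43 of them only when a library was left out.

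Over genes, deviations of same-numbered libraries correlated at 0.0189 between TEV and vehicle. Between TEV plus reserpine and the other groups the values were 0.0237 for vehicle and -0.0418 for TEV. Such low values cannot exclude a pairing that acts on few genes. With the replicate block 31, 16 and 20 members were called for the comparisons of TEV with vehicle, of TEV plus reserpine with TEV and of TEV plus reserpine with vehicle, and Tnfrsf1a (adjusted p = 0.0507), Tnfrsf10b (0.0667) and Tnfrsf22 (0.0588) lost the second call. Tnfrsf18 (0.0633) lost the third, and Tnfrsf9 for TEV and Csf2 for TEV plus reserpine gained a call against vehicle. The block follows the numbers in the sample titles. The deposited columns number the TEV and TEV plus reserpine libraries 2 and 3 instead. By those numbers vehicle replicate 2 correlated at -0.0189 with TEV replicate 1 and at -0.0237 with TEV plus reserpine replicate 1. The deviations of the 2 libraries of a group mirror each other. These values therefore repeat those above with the sign turned and are no further check. Uncalled members with a change of sign were, for TEV against vehicle, Cxcl1 (1.39 with limma-voom), Cxcl2 (3.15 with limma-voom, 0.67 with the block), Cxcl10 (0.64 and 0.003), Il1b (1.39 with limma-voom), Csf3 (-0.092 with library size alone, -0.034 with DESeq2, -0.021 with only the groups compared), Csf1 (-0.10 with library size alone, -0.0037 with only the groups compared) and Tnf (0.064 with limma-voom). For TEV plus reserpine against TEV they were Cxcl2 (-0.052 with the block) and Ccl6 (0.050 with library size alone, 0.0062 with limma-voom, 0.0033 with the block). For TEV plus reserpine against vehicle they were Cxcl2 (-0.0097 with library size alone) and Cxcl3 (0.015 with limma-voom). When a library was left out, log2 changes for TEV against vehicle ranged from -2.01 to 3.91 for Cxcl1, -1.06 to 0.24 for Cxcl2, -0.34 to 2.26 for Cxcl3, -0.63 to 2.37 for Cxcl5, -1.33 to 2.18 for Cxcl10, -3.32 to 0.87 for Ccl20, -1.95 to 1.15 for Csf2, -0.94 to 3.35 for Csf3 and -0.39 to 3.32 for Il1a. For TEV plus reserpine against vehicle they ranged from -0.48 to 5.44 for Cxcl1, -0.98 to 0.086 for Cxcl2, -0.23 to 1.43 for Ccl7 and -0.45 to 3.76 for Ccl20. The Cxcl2 ranges leave out the fit without vehicle replicate 2, whose lone vehicle library held 2.55 counts of Cxcl2; there it was called higher by ratios of 101 (29.2 to 416) with TEV and 121 (35.0 to 501) with TEV plus reserpine. Il1b, lower at -2.23 without vehicle replicate 1, was at least 3.02-fold higher with TEV without replicate 2, and with TEV plus reserpine it was lower by a ratio of 38.5 (8.70 to 293) without replicate 1. Leaving out a library also turned the sign of uncalled changes of Csf1, Tnfrsf4 and Tnf with TEV against vehicle, of Cxcl2, Ccl6, Il34, Tnfsf12, Tnfrsf9 and Tnf with TEV plus reserpine against TEV, and of Cxcl3, Tnfsf10, Tnfrsf12a and Tnf with TEV plus reserpine against vehicle. Fits without a library leave a group with a lone library, assumed to vary like the others. The cause of these differences was not tested beyond the vehicle libraries described above. Depth limits members with few counts, such as Cxcl14, Ccl11, Ccl21a and Il1b.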
